A study of Mus musculus with 18 samples.

Results

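The endothelin and renin-angiotensin systems are the 2 vasoconstrictor peptide systems described here in mouse hearts, through 9 genes chosen by name: Edn1, Edn3, Ednra, Ednrb, Ece1, Ace, Agt, Agtr1a and Agtr2. All 9 were found among the 34714 genes of the deposited table. Of these, 8 reached 1 FPKM (fragments scaled to transcript length and to sequencing depth) in at least 3 libraries and were tested, and Agtr2 was listed at 0 in every library.

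The hearts came from C57 mice in 4 groups, and bulk RNA-seq gave 18 libraries. Kcp knockout mice after transverse aortic constriction (TAC), a surgical banding of the aorta that raises the pressure against which the heart pumps, gave 5 libraries, and Kcp knockout mice after a sham operation gave 4. Wild-type mice gave 5 libraries after TAC and 4 after sham. The study asked what loss of Kcp, which encodes the secreted kielin/chordin-like protein, does to the remodelling of the loaded heart. The labels give tissue, genotype and operation alone. How the Kcp allele was made, the age and sex of the mice, the time after surgery and whether each library came from a separate mouse are details that the labels do not state. The tests therefore weigh differences against the spread between libraries, which may be technical.

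Endothelins are short peptides cut from large precursors. Edn1 and Edn3 encode the precursors of endothelin-1 and endothelin-3, and Ece1 encodes endothelin-converting enzyme 1, a membrane protease that makes the active peptide. Ednra and Ednrb encode the receptors, of which the first prefers endothelin-1 over endothelin-3 and the second binds them alike. In the renin-angiotensin system, angiotensinogen (Agt) is cut by renin and then by angiotensin-converting enzyme (Ace) to angiotensin II, which acts on the type 1 receptor (Agtr1a in the mouse heart) and the type 2 receptor (Agtr2). Endothelin-1 and angiotensin II are known to drive cardiomyocyte growth and fibrosis.

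Facts of the libraries that touch these genes are as follows. Kcp was at 0.494 to 0.952 FPKM in knockout TAC libraries and 0.655 to 0.673 in knockout sham, against 0.985 to 1.48 in wild-type TAC and 0.794 to 1.43 in wild-type sham. The genotypes thus did not overlap under either operation, and knockout libraries still had a value for Kcp. It overlaps 3 other gene models, 2 of them on the opposite strand (Atp6v1fnb and Gm26627). Whether reads were counted by strand is not stated, so the value of Kcp alone is uncertain. Kcp reached 1 FPKM only in wild-type libraries and entered the tested genes through them. Its log2 difference did not pass, at -0.27 ± 0.10 after TAC and -0.28 ± 0.12 in sham (limma adjusted p = 0.0843 and 0.301). Knockout sham replicate 2 has a library name that joins those of replicates 3 and 4 and was left out of the model, which leaves 17 libraries; the name of knockout TAC replicate 4 is joined in the same way. Ndufb4c, a complex I gene, was at 4.47 to 11.2 FPKM in wild-type TAC replicate 5 and the knockout libraries, against 35.9 to 49.4 in the other 8 wild-type libraries. These library sets nearly follow genotype. On the first principal component wild-type TAC replicate 5 and knockout TAC replicate 2 lay nearest to sham within their groups. Cardiomyocyte markers (7 genes such as Myh6 and Tnnt2) summed to 15254 to 23199 FPKM per library, and atrial markers to 2.09 to 5.77. Adipocyte markers summed to at most 1.85 FPKM.

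The promoters of 3 members are printed here. Ace and Edn3 were higher after TAC in each genotype, while Agt was called in knockout alone, a call that changed with single libraries. The 3 promoters differ in type. Each runs from 250 bases before to 50 after the annotated start (RefSeq, GRCm38.p6), and capitals mark GC boxes (GGGCGG) and TATA motifs (TATAAA), searched on both strands. These 2 motifs were added after the 4 planned ones had been searched.
Ace, chr11:105967698-105967997, plus strand: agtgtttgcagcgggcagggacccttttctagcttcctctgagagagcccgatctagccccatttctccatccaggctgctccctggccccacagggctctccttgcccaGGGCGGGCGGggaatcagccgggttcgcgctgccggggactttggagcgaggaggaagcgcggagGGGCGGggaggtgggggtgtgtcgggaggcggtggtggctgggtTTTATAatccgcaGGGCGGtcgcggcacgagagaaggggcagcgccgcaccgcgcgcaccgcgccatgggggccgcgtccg
Agt, chr8:124569657-124569956, minus strand: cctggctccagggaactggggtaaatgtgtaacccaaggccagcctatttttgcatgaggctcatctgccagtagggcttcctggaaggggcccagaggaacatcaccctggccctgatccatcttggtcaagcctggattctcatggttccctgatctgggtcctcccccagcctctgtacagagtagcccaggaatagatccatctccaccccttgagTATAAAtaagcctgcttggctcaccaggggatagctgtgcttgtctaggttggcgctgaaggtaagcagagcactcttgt
Edn3, chr2:174760369-174760668, plus strand: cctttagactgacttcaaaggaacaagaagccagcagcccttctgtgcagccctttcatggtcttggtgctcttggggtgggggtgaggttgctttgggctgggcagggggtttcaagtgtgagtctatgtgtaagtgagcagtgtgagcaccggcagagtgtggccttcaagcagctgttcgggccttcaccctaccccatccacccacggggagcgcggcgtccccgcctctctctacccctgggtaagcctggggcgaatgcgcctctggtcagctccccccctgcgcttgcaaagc
The Ace sequence holds 4 GC boxes, of which the first 2 overlap, and a TATA motif on the opposite strand 31 bases before the start. Agt has a TATA motif 30 bases before its start and no GC box, and the Edn3 sequence holds neither. Of 32851 mouse promoters of the same length, 35.66% held a GC box and 13.62% a TATA motif. The Ace sequence had 29 CpG dinucleotides and the Agt sequence 1, against a median of 7 over all promoters, and Edn3 had 10. A second Ace start inside the gene (chr11:105974939-105975238) held neither motif and had 2 CpG. Values per gene do not show which start was used. Promoter sequences were found for 8 of the 9 members.

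Of the 4 motifs planned for the promoters, AP-1 (TGANTCA), the GATA element (GATAA), the NFAT core (GGAAAA) and the hypoxia element (ACGTG) occurred in 7.81%, 25.41%, 23.36% and 19.62% of all promoters. Among the members only 2 genes held any of them. Edn1 had 1 GATA element and 1 hypoxia element, both just after its start. One of the 4 Ece1 promoters had a hypoxia element on each strand, overlapping each other. A match is a description of the letters and not a binding site.

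**Figure D1:**
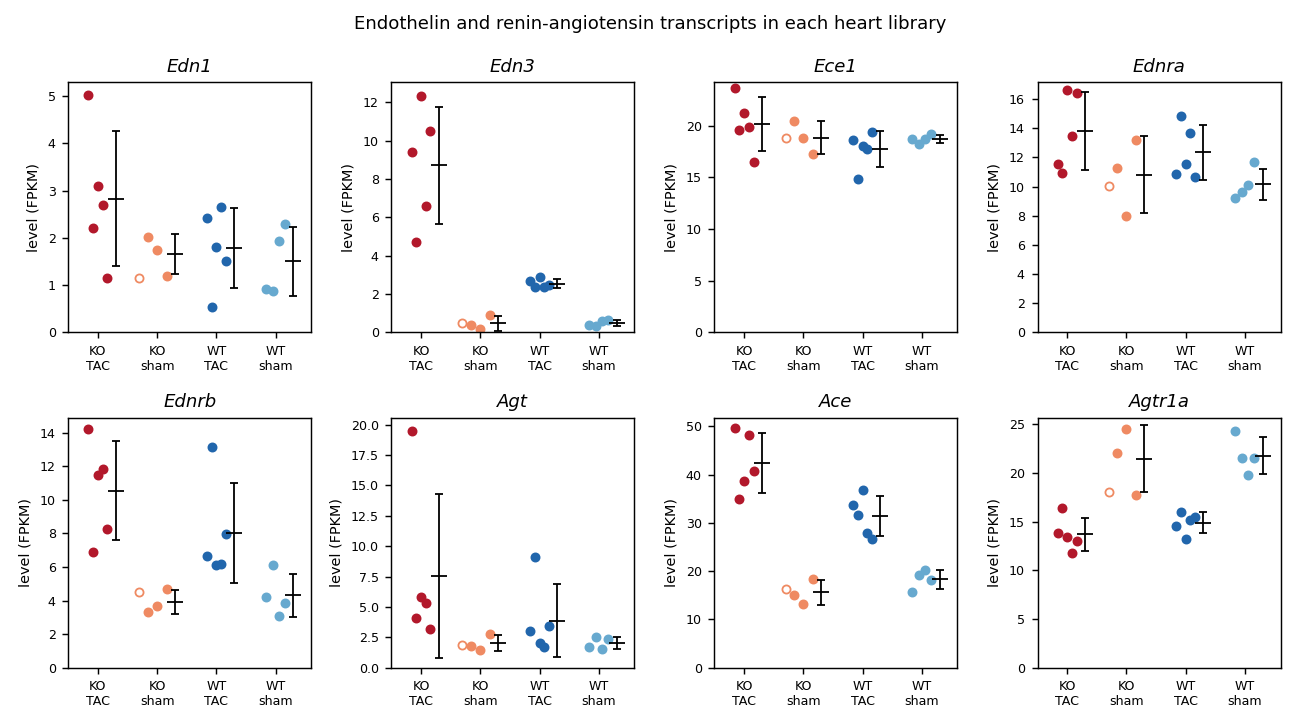
Level in FPKM of the 8 detected members in each library, by group; filled points are libraries of the model, the open point is knockout sham replicate 2, and bars give mean ± SD over the filled points. Edn3, Ednrb and Ace were higher in all TAC libraries than in the sham libraries of their genotype, and Agtr1a was lower.

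Of the ligand genes, Edn3 rose after TAC in each genotype and was higher in knockout TAC than in wild-type TAC hearts, whereas Edn1 passed no test. Edn3 (chromosome 2, 174760619 to 174784042, plus strand) was at 9.41, 4.72, 12.3, 6.61 and 10.5 FPKM in knockout TAC libraries, against 0.371, 0.154 and 0.896 in knockout sham. Wild-type TAC libraries had 2.68, 2.34, 2.91, 2.36 and 2.45 FPKM, against 0.363, 0.332, 0.593 and 0.651 in wild-type sham. No TAC library overlapped a sham library, and the lowest knockout TAC value stood above the highest wild-type TAC value. Wild-type TAC libraries lay close together (2.55 ± 0.241 FPKM, SD, n = 5), and knockout TAC libraries were spread widely (8.71 ± 3.04, SD, n = 5).

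Changes are given as differences of log2(FPKM + 1) with their standard errors, and adjusted p-values come from limma with Benjamini-Hochberg over 11937 genes. The log2 change of Edn3 was 2.69 ± 0.21 in knockout hearts (6.44-fold on this scale, limma adjusted p = 1.68e-07). In wild type it was 1.26 ± 0.19 (2.40-fold, limma adjusted p = 0.000287). Because Edn3 reached 1 FPKM in all 10 TAC libraries and in 0 of the sham libraries, it entered the tested genes through the TAC groups. Its calls in TAC against sham are therefore a description of where it was high. Knockout TAC exceeded wild-type TAC by 1.39 ± 0.18 (2.62-fold, limma adjusted p = 0.000313), a comparison in which all libraries were above 1 FPKM. Wild-type TAC replicate 5, the one wild-type library that shares the Ndufb4c level of the knockouts, had 2.45 FPKM of Edn3. With a term for the library sets, which rests on that library, the Edn3 difference after TAC was 1.43 (limma adjusted p = 0.0352).

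The interaction, the difference between the TAC responses of the genotypes, was 1.43 ± 0.29 for Edn3 (limma adjusted p = 0.034). That call was not stable to single libraries. It passed in 7 of the 17 fits that left out 1 library, with log2 values from 1.27 to 1.62 and adjusted p from 0.0012 to 0.0795, and with the library-set term its limma adjusted p was 0.0573. It was lost without knockout TAC replicate 1, knockout sham replicates 1 or 3, wild-type TAC replicates 2, 4 or 5, or any one of the 4 wild-type sham libraries.

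Edn1 (chromosome 13, 42301476 to 42307990, plus strand), the main endothelin gene of vascular endothelium, was at 5.02, 2.20, 3.09, 2.70 and 1.15 FPKM in knockout TAC libraries, against 2.02, 1.74 and 1.19 in knockout sham. It had 2.41, 0.533, 1.80, 2.66 and 1.51 FPKM in wild-type TAC libraries, against 0.914, 0.870, 1.93 and 2.30 in wild-type sham. The groups overlapped in every comparison, and wild-type TAC replicate 2 had the lowest value of all 17 libraries. The log2 changes after TAC were 0.47 ± 0.31 in knockout (adjusted p = 0.259) and 0.14 ± 0.29 in wild type (adjusted p = 0.775, limma). An antisense gene model, Gm47118, overlaps Edn1, and whether reads were counted by strand is not stated in the labels.

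The ratio of the ligands followed these levels. Edn3 over Edn1 had a median of 2.45 in knockout TAC libraries (1.87 to 9.13), against 0.183 in knockout sham (0.0883 to 0.754). In wild type its median was 1.61 after TAC (0.886 to 4.40), against 0.344 in sham (0.283 to 0.397). Edn3 was therefore the lower of the ligand transcripts in every sham library, and was the higher in all TAC libraries but 1. The remaining ligand gene, Edn2, was at most 0.0707 FPKM and was above 0 in 2 of 17 libraries.

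Ece1 (chromosome 4, 137862237 to 137965229, plus strand) passed no test. It ranged from 16.5 to 23.7 FPKM in knockout TAC and 17.2 to 20.5 in knockout sham, and from 14.8 to 19.4 in wild-type TAC and 18.2 to 19.2 in wild-type sham. The log2 changes after TAC were 0.09 ± 0.09 in knockout and -0.08 ± 0.09 in wild type (limma adjusted p = 0.484 and 0.548). The antisense model Gm13012 within its bounds was listed at no more than 0.077 FPKM.

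Of the related proteases, Mme and Ece2 differed in pattern. Mme encodes neprilysin, which degrades endothelins, angiotensins and natriuretic peptides, and it fell after TAC in each genotype. Its level was 0.867 ± 0.383 FPKM in knockout TAC (SD, n = 5) against 2.08 ± 0.337 in knockout sham (n = 3), and 1.03 ± 0.148 in wild-type TAC (n = 5) against 2.01 ± 0.358 in wild-type sham (n = 4). The log2 changes of Mme were -0.74 ± 0.14 and -0.56 ± 0.13 (limma adjusted p = 0.000361 and 0.00409). Ece2, a second endothelin-converting enzyme gene, was at 1.14, 1.10, 0.976, 1.24 and 0.947 FPKM in knockout TAC libraries and was listed at 0 in all knockout sham libraries. In wild type it was listed at 0 in 3 of 5 TAC and 3 of 4 sham libraries, with 0.685 and 0.328 FPKM in TAC replicates 1 and 2 and 0.367 in sham replicate 3. The gene model Gm49333 overlaps Ece2 on the same strand, so the value of Ece2 alone is uncertain. Ece2 reached 1 FPKM only in knockout TAC libraries (3 of 5) and entered the tested genes through that group, so its calls are a description of where it was high. In knockout TAC against wild-type TAC its log2 difference was 0.82 ± 0.14 (limma adjusted p = 0.00166). Of the 7 genes listed with the endothelin pathway, Mme and Ece2 were tested. In knockout TAC 1 rose (Ece2) and 1 fell (Mme), beside 21.1% and 17.7% over all tested genes. In wild type 0 rose and 1 fell (Mme), beside 10.7% and 11.2%. The other 5 (Edn2, Ecel1, Mmel1, Kel and Phex) were under 1 FPKM throughout.

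Of the receptor genes, Ednrb, whose product clears endothelin and on endothelium releases nitric oxide, rose after TAC in each genotype, while Ednra, the main endothelin receptor gene of muscle cells, did not pass. Ednrb (chromosome 14, 103814625 to 103844402, minus strand) was at 14.2, 6.88, 11.5, 11.8 and 8.27 FPKM in knockout TAC libraries, against 3.33, 3.69 and 4.71 in knockout sham. It was at 6.63, 13.2, 6.14, 6.17 and 7.97 FPKM in wild-type TAC libraries, against 4.24, 6.11, 3.10 and 3.84 in wild-type sham. TAC and sham did not overlap within a genotype, although in wild type the lowest TAC value (6.14) and the highest sham value (6.11) nearly touched.

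The log2 change of Ednrb was 1.20 ± 0.24 in knockout (2.30-fold, adjusted p = 0.00101) and 0.74 ± 0.22 in wild type (1.67-fold, limma adjusted p = 0.0267). The wild-type call was lost without wild-type TAC replicate 2 or without wild-type sham replicate 1, 3 or 4, with limma adjusted p from 0.0519 to 0.0797. Knockout TAC against wild-type TAC did not pass for Ednrb (0.37 ± 0.21, limma adjusted p = 0.284).

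Ednra (chromosome 8, 77663031 to 77724464, minus strand) had 11.5, 11.0, 16.6, 13.5 and 16.4 FPKM in knockout TAC libraries, against 11.3, 7.98 and 13.2 in knockout sham. Wild-type TAC libraries had 10.9, 14.9, 11.6, 13.7 and 10.7 FPKM, against 9.22, 9.65, 10.1 and 11.7 in wild-type sham. TAC and sham overlapped in each genotype. Its log2 changes were 0.33 ± 0.15 in knockout (adjusted p = 0.0978) and 0.25 ± 0.14 in wild type (limma adjusted p = 0.22). The knockout change passed without knockout TAC replicate 2 or knockout sham replicate 4 (limma adjusted p = 0.0453 and 0.0337).

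Ednra was the higher receptor transcript in all libraries but 1, knockout TAC replicate 1. The ratio of Ednra to Ednrb had a median of 1.45 in knockout TAC (0.811 to 1.98), against 2.80 in knockout sham (2.16 to 3.39). Its median was 1.64 in wild-type TAC (1.13 to 2.22), against 2.60 in wild-type sham (1.58 to 3.27). In knockout the ratio did not overlap between TAC and sham, and in wild type it did.

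**Figure D2:**
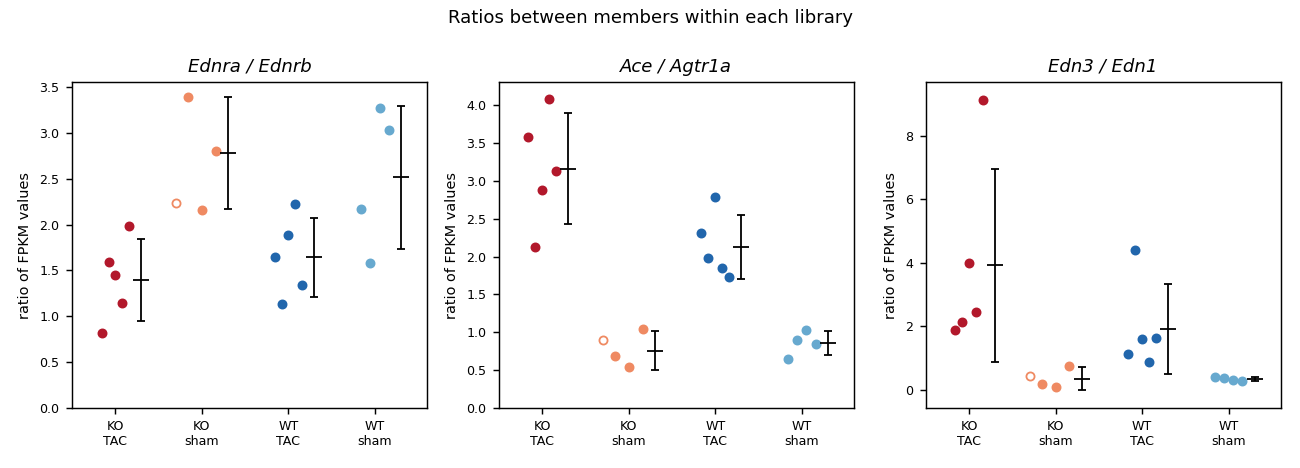
Ratio of the FPKM values of paired members within each library; filled points are libraries of the model, the open point is knockout sham replicate 2, and bars give mean ± SD. Ace over Agtr1a was at least 1.73 in all TAC libraries and at most 1.04 in all sham libraries of the model.

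In the renin-angiotensin system Ace rose after TAC and Agtr1a fell, in each genotype and with no overlap between TAC and sham. Ace (chromosome 11, 105967945 to 105989964, plus strand) was at 49.6, 34.9, 38.6, 48.1 and 40.8 FPKM in knockout TAC libraries, against 15.2, 13.2 and 18.5 in knockout sham. It was at 33.6, 31.7, 36.9, 28.0 and 26.7 FPKM in wild-type TAC libraries, against 15.6, 19.3, 20.3 and 18.1 in wild-type sham. Ace was the most abundant member in each TAC group, with no overlap with the next, Ece1. In sham hearts its range overlapped that of Ece1.

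The log2 change of Ace was 1.39 ± 0.13 in knockout (2.61-fold, adjusted p = 4.92e-07) and 0.74 ± 0.12 in wild type (1.67-fold, limma adjusted p = 0.000321). Knockout TAC exceeded wild-type TAC by 0.42 ± 0.11 (1.34-fold, limma adjusted p = 0.0222), although the libraries overlapped. That difference was lost without knockout TAC replicates 1 or 4 or wild-type TAC replicates 4 or 5, with limma adjusted p from 0.0596 to 0.067, and with a term for the library sets (limma adjusted p = 0.0839). The interaction of Ace was 0.65 ± 0.17 and did not pass (limma adjusted p = 0.0715), and passed without knockout TAC replicate 2 (limma adjusted p = 0.0225). The antisense model Gm11651 within Ace was listed at no more than 0.0347 FPKM.

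Agtr1a (chromosome 13, 30336441 to 30382867, plus strand) was at 13.8, 16.4, 13.4, 11.8 and 13.0 FPKM in knockout TAC libraries, against 22.0, 24.5 and 17.7 in knockout sham. It was at 14.6, 16.01, 13.2, 15.2 and 15.4 FPKM in wild-type TAC libraries, against 24.3, 21.5, 19.7 and 21.5 in wild-type sham. Its log2 changes were -0.61 ± 0.10 in knockout (adjusted p = 0.000135) and -0.52 ± 0.09 in wild type (limma adjusted p = 0.000804). Each passed in all 17 fits that left out 1 library, and the interaction was -0.09 ± 0.14 (limma adjusted p = 0.767). In a bulk sample, fewer cells of a type and less RNA per cell cannot be told apart: the 7 cardiomyocyte markers summed to 15254 to 16706 FPKM in knockout TAC against 20716 to 23199 in knockout sham, and to 15961 to 18568 in wild-type TAC against 20161 to 20998 in wild-type sham. The markers did not move as one. In knockout 2 of the 7 were called higher and 5 lower (21.1% and 17.7% over all tested genes). In wild type 2 were called higher and 4 lower (10.7% and 11.2%). The part of cardiomyocytes in the fall of Agtr1a was not tested.

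The members changed places in the order of mean FPKM. In each sham group the order was Agtr1a, Ece1, Ace, Ednra, Ednrb, Agt, Edn1 and Edn3, where the ranges of Ece1 and Ace and of Agt and Edn1 overlapped, as did those of Agtr1a and Ece1 in knockout sham. In knockout TAC the order was Ace, Ece1, Ednra, Agtr1a, Ednrb, Edn3, Agt and Edn1, and in wild-type TAC it was Ace, Ece1, Agtr1a, Ednra, Ednrb, Agt, Edn3 and Edn1. In the TAC groups Ace stood clear of Ece1, and the ranges of all other neighbours among the detected members overlapped. The ratio of Ace to Agtr1a had a median of 3.13 in knockout TAC (2.13 to 4.09), against 0.687 in knockout sham (0.539 to 1.04). In wild-type TAC the median was 1.98 (1.73 to 2.78), against 0.869 in wild-type sham (0.642 to 1.03).

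Agt (chromosome 8, 124556534 to 124569706, minus strand) was at 19.5, 4.12, 5.79, 5.29 and 3.16 FPKM in knockout TAC libraries, against 1.82, 1.49 and 2.77 in knockout sham. It was at 3.02, 9.11, 2.02, 1.73 and 3.44 FPKM in wild-type TAC libraries, against 1.70, 2.49, 1.54 and 2.39 in wild-type sham. Knockout TAC replicate 1 and wild-type TAC replicate 2 stood far above the rest of their groups. The knockout change was 1.26 ± 0.46 (2.40-fold, limma adjusted p = 0.0418), and the wild-type change was 0.52 ± 0.42 (limma adjusted p = 0.412). The knockout call passed in 9 of the 17 fits that left out 1 library. It was lost without any one of knockout TAC replicates 1, 3 and 4, knockout sham replicates 1, 3 and 4, wild-type TAC replicate 5 and wild-type sham replicate 1, and its log2 value without knockout TAC replicate 1 was 0.88 (limma adjusted p = 0.0626).

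**Figure D3:**
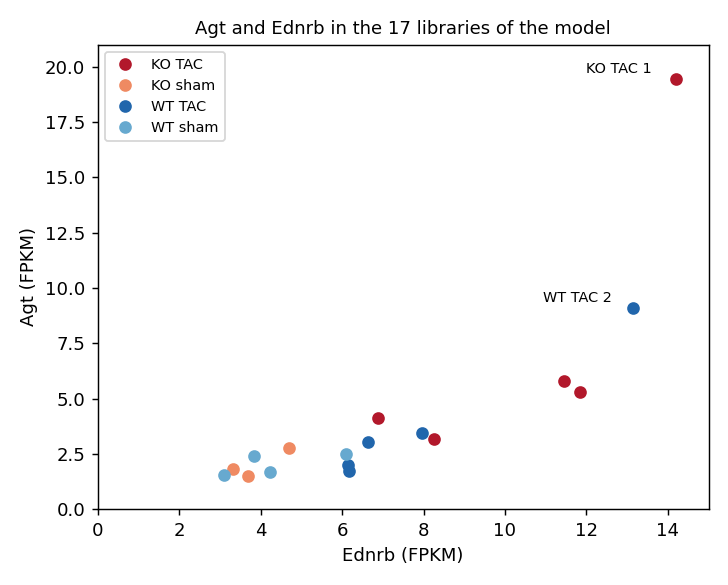
Agt (vertical axis, FPKM) against Ednrb (horizontal axis, FPKM) in the 17 libraries of the model, coloured by group. Knockout TAC replicate 1 and wild-type TAC replicate 2 had the highest value of each gene within their groups.

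The libraries that were highest for Agt were highest for Ednrb too, at 14.2 FPKM in knockout TAC replicate 1 and 13.2 in wild-type TAC replicate 2. Endothelial markers ranked 4 of 5 in each of these libraries within its group (851 and 847 FPKM over 10 genes). Mesothelial and epicardial markers were highest of the group in knockout TAC replicate 1 (7.08 FPKM over 5 genes) and ranked 3 of 5 in wild-type TAC replicate 2 (3.58). Fibroblast markers were highest of the group in the knockout library (964 FPKM over 8 genes) and ranked 4 of 5 in the wild-type one (889). Endocardial and mast cell markers were highest of the group in the knockout library (23.6 FPKM over 5 genes and 5.36 over 7) and lowest of the group in the wild-type one (8.08 and 1.10). The part of other cells in these values was not tested.

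Agtr2, the type 2 receptor gene (chromosome X, 21484544 to 21489164, plus strand), was listed at 0 in all libraries. Agtr1b, the second type 1 receptor gene of the mouse, was listed at 0 in all 17 libraries of the model as well. The renin genes Ren1 and Ren2 and the aldosterone and corticosterone synthesis genes Cyp11b2 and Cyp11b1 were also listed at 0. Mas1, the receptor gene of angiotensin 1-7, was at 0.0607 to 0.613 FPKM and below the filter.

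**Figure D4:**
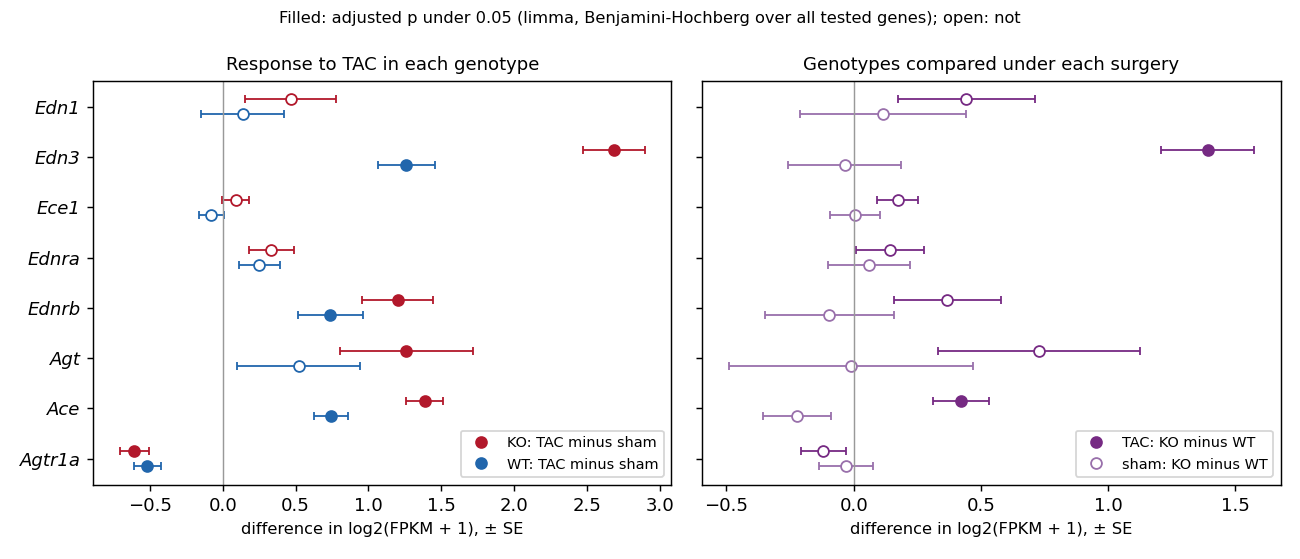
Difference in log2(FPKM + 1) with its standard error for the 8 tested members: on the left TAC minus sham in knockout and wild-type hearts, on the right knockout minus wild type after TAC and in sham. Filled points passed limma with Benjamini-Hochberg at 0.05; in sham no member passed.

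Counted together, 4 of the 8 tested members rose in knockout TAC against knockout sham (Edn3, Ednrb, Ace and Agt) and 1 fell (Agtr1a), where 21.1% of all tested genes were called higher and 17.7% lower. In wild type 3 of 8 rose (Edn3, Ednrb and Ace) and 1 fell (Agtr1a), where 10.7% of genes were higher and 11.2% lower. Edn3 entered the tested genes through the TAC groups, so its place in both counts describes where it was high. The median log2 change of the 8 members was 0.83 in knockout and 0.39 in wild type, against 0.01 and -0.01 over all tested genes. Edn3 is part of these medians too, and the members were chosen with earlier results of these data known. The medians are therefore a description and no test of a shift. Knockout TAC against wild-type TAC called 2 of 8 higher (Edn3 and Ace) and 0 lower, where 6.53% of genes were higher and 4.78% lower. At an unadjusted p under 0.05 Ece1 (0.17 ± 0.08, limma adjusted p = 0.179) was added there.

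After sham surgery no member was called between the genotypes. In knockout sham against wild-type sham 0 of the 8 members passed in limma, and 0 had an unadjusted p under 0.05, where 0.645% of genes were called higher and 0.62% lower. Their log2 differences ran from -0.22 to 0.12 (limma adjusted p from 0.48 to 0.996). The interaction was called for 1 of 8 (Edn3), where 0.377% of genes had the larger value in the knockout response and 0.553% the smaller. For the other 6 members apart from Ace it ran from -0.09 to 0.74 (limma adjusted p from 0.473 to 0.868). The comparisons share libraries, so their counts are not independent.

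The genes whose pattern over the 17 libraries was most like each member were found by Pearson r of log2(FPKM + 1) among 11245 named genes, as a description. Nearest to Edn3 were Zyx, Nlrc3 and Lbp, each at r = 0.97. Nearest to Ace were the matrix genes Mfap4, Col8a1 and Bgn (r = 0.98 each), and these stayed close after the group means were removed (r = 0.84 to 0.85). For Edn3 the values after removing group means were 0.53 to 0.60. Edn1 was nearest to Cxcl16, Cxcr4 and Plvap (r = 0.87, 0.85 and 0.82), of which Plvap is made by endothelium. Ednrb was nearest to Stc1, Cttnbp2nl and Maff (r = 0.96, 0.96 and 0.95). Agt was nearest to Gprc5a and Akap12, and Ednrb itself came next (r = 0.87). Agtr1a was nearest to Slc41a1, Kyat3 and Kcnj5, the gene of a potassium channel subunit (r = 0.95 each). Ednra was nearest to Syt12, Ptprr and Irs1, and Ece1 to Smoc1, Ppm1d and Ddb1, with r from 0.84 to 0.85.

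Markers of other cell types were summed per library beside these genes. Activated fibroblast markers (6 genes such as Postn and Cilp) summed to 107.9 to 355.5 FPKM in knockout TAC against 14.0 to 15.4 in knockout sham, and to 45.0 to 185.7 in wild-type TAC against 15.3 to 23.2 in wild-type sham. Macrophage markers (8 genes) summed to 287 to 394 FPKM in knockout TAC against 208 to 231 in knockout sham, and to 227 to 356 in wild-type TAC against 176 to 300.2 in wild-type sham. Endothelial markers overlapped between surgeries, at 830 to 1139 FPKM in knockout TAC against 846 to 936 in knockout sham, and at 789 to 955 in wild-type TAC against 814 to 876 in wild-type sham. Smooth muscle and pericyte markers (9 genes) summed to 212 to 282 FPKM in knockout TAC against 259 to 280 in knockout sham, and to 257 to 309 in wild-type TAC against 289 to 298 in wild-type sham. Mesothelial and epicardial markers (5 genes) summed to 1.84 to 7.08 FPKM in knockout TAC against 1.70 to 2.05 in knockout sham, and to 3.51 to 4.56 in wild-type TAC against 1.42 to 3.01 in wild-type sham, where they did not overlap. Schwann and neural markers (5 genes) summed to 1.30 to 3.49 FPKM in knockout TAC against 2.41 to 5.08 in knockout sham, and to 1.31 to 3.33 in wild-type TAC against 4.43 to 5.04 in wild-type sham, again without overlap in wild type. The part of these cells in the rises of Edn3, Ednrb and Ace was not tested.

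Of 30 other genes listed for the renin-angiotensin system, 15 were tested. In knockout TAC against knockout sham 4 rose and 3 fell, beside 21.1% of all tested genes called higher and 17.7% lower, with a median log2 change of 0.12. Mtus1, which encodes an interacting protein of the type 2 receptor, rose by 0.72 ± 0.11, to 51.5 ± 4.32 FPKM in knockout TAC against 30.9 ± 2.66 in knockout sham (SD, n = 5 and 3; limma adjusted p = 3.93e-05). Nr3c2, the mineralocorticoid receptor gene, fell to 2.62 ± 0.747 FPKM in knockout TAC against 4.97 ± 0.109 in knockout sham (log2 change -0.75 ± 0.14, limma adjusted p = 0.000436). The angiotensin-cleaving peptidase genes Prep and Prcp rose by 0.23 ± 0.06 and 0.48 ± 0.14 in knockout (limma adjusted p = 0.00402 and 0.0098), and the call of Prcp was lost without knockout sham replicate 4 (limma adjusted p = 0.0634).

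In wild type 1 of the 15 rose and 0 fell, where 10.7% of all tested genes were higher and 11.2% lower, with a median of 0.05; the gene was Prep (0.23 ± 0.05, limma adjusted p = 0.0044). Knockout TAC against wild-type TAC called 1 of 15 higher and 2 lower (6.53% and 4.78% over all tested genes). Apln, which encodes apelin, a peptide that opposes angiotensin II, was lower by 0.80 on the log2 scale (-0.80 ± 0.20, limma adjusted p = 0.0187). That call was lost without knockout TAC replicate 1 (limma adjusted p = 0.0556). Nr3c2 was lower (-0.41 ± 0.12) and Thop1, an oligopeptidase gene, was higher (0.22 ± 0.07). Their calls passed in 10 and 5 of the 17 fits that left out 1 library (largest limma adjusted p 0.1 and 0.122). In sham 0 of the 15 were called. Apln was lower there too in knockout (3.11 to 4.33 FPKM against 4.95 to 5.92) and Thop1 higher (7.31 to 8.60 against 5.74 to 7.09), without overlap. Nr3c2 overlapped in sham (4.86 to 5.08 against 4.27 to 5.20).

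The endothelin receptors and the type 1 angiotensin receptor couple to Gq, which activates phospholipase C and protein kinase C. Their signals are switched off by receptor kinases, arrestins and RGS proteins. Of 31 genes listed for this step, 26 were tested, of which 9 rose and 3 fell in knockout TAC against knockout sham (21.1% and 17.7% over all tested genes). In wild type 2 rose and 3 fell (10.7% and 11.2% over all tested genes). Grk5, a receptor kinase gene, rose to 13.7 ± 2.56 FPKM in knockout TAC against 5.74 ± 0.585 in knockout sham, and to 9.80 ± 1.16 in wild-type TAC against 7.07 ± 0.445 in wild-type sham (SD, n = 5, 3, 5 and 4). Its log2 changes were 1.11 ± 0.13 and 0.41 ± 0.12 (limma adjusted p = 3.72e-06 and 0.0171). Grk5 was higher in knockout TAC than in wild-type TAC (0.43 ± 0.11, limma adjusted p = 0.0191), a call lost without knockout TAC replicate 1 or 4 (limma adjusted p up to 0.0538).

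Among the kinases, Prkcd rose by 0.76 ± 0.09 in knockout and 0.41 ± 0.08 in wild type, and Prkca rose by 0.37 ± 0.06 in knockout (limma adjusted p = 4.18e-06, 0.00181 and 0.000149). Arrb1, the gene of beta-arrestin 1, rose by 0.45 ± 0.09 in knockout (limma adjusted p = 0.000675). Rgs2, a Gq inhibitor gene, fell to 5.98 ± 1.48 FPKM in wild-type TAC against 14.2 ± 5.65 in wild-type sham (-1.08 ± 0.26, limma adjusted p = 0.00722). Prkce fell there by 0.27 on the log2 scale (-0.27 ± 0.07, limma adjusted p = 0.00895). Both had a lower mean after TAC in knockout as well. Rgs2 was at 8.74 ± 2.65 FPKM in knockout TAC against 20.1 ± 7.15 in knockout sham (SD), and the ranges overlapped (7.04 to 13.4 against 13.0 to 27.3). Prkce was at 4.92 ± 0.271 against 5.76 ± 0.137 (SD), without overlap.

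Genes known to respond to angiotensin II or endothelin-1 in cultured cells were listed as well, and many of them answer to load in other ways. Of 22 such genes, 20 were tested; 13 rose and 0 fell in knockout (median 1.44), where 21.1% of all tested genes were higher and 17.7% lower. In wild type 9 rose and 0 fell (median 0.48), where 10.7% were higher and 11.2% lower. In order of adjusted p the natriuretic peptide genes Nppa and Nppb came first in each genotype, with log2 changes of 5.50 ± 0.45 and 4.29 ± 0.32 in knockout and 3.35 ± 0.41 and 2.61 ± 0.29 in wild type. Next by adjusted p in knockout came Ccn2, the connective tissue growth factor gene (3.29 ± 0.35), and Myc, a growth transcription factor gene (1.71 ± 0.24), with limma adjusted p = 5.79e-06 and 3.12e-05. In wild type, Acta1, the skeletal alpha-actin gene (4.51 ± 0.59), and Rcan1, a calcineurin regulator gene (1.60 ± 0.30, limma adjusted p = 0.00171), came next by adjusted p, although the log2 change of Acta1 was larger than those of Nppa and Nppb there. These genes were higher after TAC in the other genotype too. Acta1 was at 3498 ± 1429 FPKM in knockout TAC against 171 ± 176 in knockout sham, and Rcan1 at 97.2 ± 43.0 against 19.5 ± 2.87 (SD). Ccn2 was at 112 ± 16.4 FPKM in wild-type TAC against 35.3 ± 2.63 in wild-type sham, and Myc at 4.16 ± 0.792 against 1.64 ± 0.513 (SD). Knockout TAC against wild-type TAC called 4 of 20 higher and 0 lower (6.53% and 4.78% over all tested genes). These were Nox4, an NADPH oxidase gene at 1.83 ± 0.731 FPKM in knockout TAC against 0.606 ± 0.308 in wild-type TAC (SD, n = 5 each; 0.80 ± 0.17, limma adjusted p = 0.00619), Lox, a collagen cross-linking enzyme gene (1.27 ± 0.30), Nppa (1.54 ± 0.39) and Ccn2 (1.04 ± 0.31). Nox4 reached 1 FPKM only in knockout TAC libraries (4 of 5) and entered the tested genes through that group. Its call and its place in the count therefore describe where it was high. The call of Nppa was lost without knockout TAC replicate 1 (limma adjusted p = 0.0639), and that of Ccn2 passed in 5 of the 17 fits that left out 1 library. In sham 0 of the 20 were called. Lox was higher there in knockout without overlap (0.816 to 1.14 FPKM against 0.460 to 0.511). Ccn2 was lower (19.1 to 28.6 against 32.1 to 37.6), and Nppa and Nox4 overlapped.

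Vasodilator genes that oppose these peptides formed the last list. Of 17 genes 14 were tested; 6 rose and 1 fell in knockout (21.1% and 17.7% over all tested genes), and 3 rose and 2 fell in wild type (10.7% and 11.2%). Ptgis, the prostacyclin synthase gene, rose by 1.15 ± 0.17 in knockout and 0.67 ± 0.15 in wild type (limma adjusted p = 3.95e-05 and 0.00512). The adrenomedullin and CGRP receptor partners moved apart: Ramp3 rose to 11.0 ± 3.09 FPKM in knockout TAC against 3.68 ± 0.949 in knockout sham, and to 7.56 ± 2.85 in wild-type TAC against 3.76 ± 0.393 in wild-type sham. Ramp1 fell to 0.832 ± 0.275 FPKM in knockout TAC against 2.23 ± 0.490 in knockout sham, and to 1.82 ± 0.388 in wild-type TAC against 3.38 ± 0.444 in wild-type sham (SD, n = 5, 3, 5 and 4). The log2 changes of Ramp3 were 1.34 ± 0.22 and 0.80 ± 0.21 (limma adjusted p = 0.000203 and 0.0114), and those of Ramp1 were -0.82 ± 0.14 and -0.64 ± 0.13 (limma adjusted p = 0.000149 and 0.00169).

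Ramp1 was lower in knockout TAC than in wild-type TAC as well (-0.63 ± 0.12, limma adjusted p = 0.00399). Calcrl, the receptor gene that pairs with both, rose in knockout (0.49 ± 0.08, limma adjusted p = 6.89e-05) and was higher in knockout TAC than in wild-type TAC (0.31 ± 0.07, limma adjusted p = 0.0073). Prkg1, the gene of cyclic GMP-dependent protein kinase, rose in wild type (0.56 ± 0.10, limma adjusted p = 0.000851). In knockout it was at 2.73 ± 0.363 FPKM after TAC against 1.75 ± 0.217 in sham (SD), without overlap. Ddah2, whose product degrades nitric oxide synthase inhibitors, was higher in knockout TAC than in wild-type TAC (0.34 ± 0.10, limma adjusted p = 0.0375), in 10 of the 17 fits that left out 1 library.

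Of the 13 listed genes called between knockout TAC and wild-type TAC, 3 passed with the library-set term in the model. One was Nppa (limma adjusted p = 0.0291). Its log2 difference was 1.54 without the term and 2.76 with it. The term rests on wild-type TAC replicate 5, which lay nearest to sham in its group on the first principal component. The Nppa value with the term therefore rests on that single library. The others were Nox4 and Ece2 (limma adjusted p = 0.0283 and 0.0292), which reached 1 FPKM only in knockout TAC libraries (4 and 3 of 5), entered the tested genes through that group and are no support for a difference. The other 10 did not, with limma adjusted p from 0.0571 for Apln to 0.532 for Thop1.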

How the data were processed

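The authors deposited 1 table of normalised expression values per gene, with a column for each of 18 libraries. The labels name mouse genome build mm10, while the aligner, the counter and the annotation are not stated in what was used here. The unit was taken to be FPKM from the values, which the authors had already scaled by gene length and depth before they deposited them. Depth per library is unknown, because the values do not fall on steps of whole reads. Between 11027 and 11377 genes reached 1 FPKM per library.

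From there log2(FPKM + 1) was computed for the 11937 genes that reached 1 FPKM in 3 or more of 17 libraries, and 1 model of the 4 group means was fitted with limma 3.58.1 (R 4.3.3, trended and robust variance). P-values were adjusted by Benjamini-Hochberg over all of these genes with a threshold of 0.05, in 5 contrasts, which were the response to TAC of each genotype, the genotype difference after TAC and after sham, and the interaction. The procedure was tested on simulated data. The log2(FPKM + 1) scale understates changes of genes near 1 FPKM. Alternatives were the addition of knockout sham replicate 2, a replicate block, a pseudocount of 0.1, no filter, median-ratio scaling, separate fits of each pair of groups, a required log2 change of 1 or more, a library-set term, and leaving out single libraries or both TAC libraries nearest to sham.

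The members and lists were chosen with earlier results of these data known. Listed genes were named when they were among the up to 4 smallest adjusted p-values that passed in a list and contrast. A listed gene named for knockout or for wild type alone may have moved in the other genotype as well. Gene positions are from GENCODE on GRCm38 and promoters from RefSeq. Some results of listed genes are not reported here.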

Additional observations from a re-analysis of the deposited data

Results flagged for a closer look

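Among 24 sets of 4 or 5 libraries of 1 gene and group, 3 had a library far from the others in FPKM. The rule was applied to FPKM and not to log2(FPKM + 1). Its chance rate of about 1 in 20 holds for normally spread values, so the 3 flags are a description. Agt was 19.5 FPKM in knockout TAC replicate 1, against 3.16 to 5.79 in the other 4 libraries of its group. In wild-type TAC replicate 2 Agt was at 9.11 FPKM, where the other 4 libraries had 1.73 to 3.44. The same wild-type library had 13.2 FPKM of Ednrb, against 6.14 to 7.97 in the others.

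Among the members and the listed genes, the response to TAC differed between the genotypes for 3 genes by the interaction term of limma. Over all 11937 tested genes 0.377% were called higher and 0.553% lower there. It was 1.43 on the log2 scale for Edn3 (adjusted p = 0.034), 0.94 for Ece2 (adjusted p = 0.0432) and 0.45 for Calcrl (adjusted p = 0.0497). Ece2 was tested only because 3 knockout TAC libraries reached 1 FPKM, so its p is no support for a difference. For Ece2 the call passed in 3 of the 17 fits that left out 1 library and for Calcrl in 2, beside the 7 of 17 for Edn3. Values with the library-set term were 0.0802 for Ece2, 0.0813 for Calcrl and 0.0573 for Edn3 (limma adjusted p).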

How the results depend on the processing

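With 17 libraries of unknown depth, counts of called genes moved with single libraries, most for the interaction. Rises of Edn3 and Ace and the fall of Agtr1a after TAC in both genotypes passed in every fit that left out 1 library. So did the rise of Ednrb in knockout and the difference of Edn3 between the TAC groups. The rises of Edn3 describe where it was high, because it entered the tested genes through the TAC groups. No setting turned the direction of the member values that were followed. These were the response to TAC in each genotype, the genotype difference after TAC, and the interactions of Edn3 and Ace. Interactions of the other members and their differences in sham were not followed value by value. Of the followed values, 626 of those under an alternative kept their call, 39 lost it and 9 gained it.

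Adding knockout sham replicate 2 gave 128 genes lower in the sham comparison, and 173 higher, 127 lower and 2 members (Edn3 and Ace) higher in the interaction. Replicate numbers are not tied across groups by the labels and same-numbered libraries did not deviate together (r from -0.24 to 0.16); with the replicate block the interaction gave 163 genes higher and 182 lower, Edn1 passed in knockout (limma adjusted p = 0.0322) and Agt did not (limma adjusted p = 0.0714). In the interaction a pseudocount of 0.1 left 0 members, no filter gave 5 genes higher, 11 lower and 0 members, and median-ratio scaling gave 149 lower. Leaving out both TAC libraries nearest to sham gave 212 higher, 249 lower and 2 members there. Fits of only the TAC groups gave 482 genes higher and 340 lower.

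A log2 fold change of at least 1 gave 308 genes higher and 120 lower with 0 members lower in knockout, 90 and 25 with 1 member higher and 0 lower in wild type, 36 and 26 with 1 member higher between the TAC groups, 6 and 18 in sham, and 5 and 9 in the interaction. The library-set term gave 153 higher and 90 lower with 1 member (Edn3) between the TAC groups, 4 and 8 in sham, and 4, 13 and 0 members in the interaction. With it Agt in knockout had a limma adjusted p of 0.0513; without the filter it was 0.0547, and with only the groups compared 0.0645.

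Without 1 library, the TAC groups gave 373 (without knockout TAC replicate 1) to 962 genes higher (without knockout TAC replicate 2), 296 to 876 lower and 1 to 3 members higher, the third being Ece1 without knockout TAC replicate 5 (limma adjusted p = 0.0481). The sham comparison gave 24 to 92 genes higher and 27 to 82 lower, both lowest without knockout sham replicate 3. The interaction gave 3 (without wild-type sham replicate 3) to 284 genes higher, 7 (without knockout sham replicate 1) to 311 lower and 0 to 2 members. For Agtr2, at 0 throughout, no setting gave a test.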

Other observations

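Knockout sham replicate 2, whose library name joins those of replicates 3 and 4, lay within or near the other sham libraries for these genes, with 0.488 FPKM of Edn3, 16.3 of Ace, 18.1 of Agtr1a, 4.48 of Ednrb and 1.86 of Agt. Over genes, the SD of its log2 difference from the mean of replicates 3 and 4 was 0.153, against 0.196 from replicate 1, 0.197 from replicate 3 and 0.209 from replicate 4. A mean of 2 libraries varies less than a single library, so a smaller SD from it is partly built in. These values do not show whether replicate 2 is a pool.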
